A study of Arabidopsis thaliana with 6 samples.

Results

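The 10 genes described here are markers of carbon starvation and enzymes of branched-chain amino acid breakdown in *Arabidopsis thaliana*. They were picked by gene identifier among the 27444 genes of the deposited tables. The set holds the dark-inducible genes DIN1, DIN3, DIN6, DIN9 and DIN10, and BCAT2, IVD, MCCA, D2HGDH and ETFQO. Their transcripts were compared between *lon1-2atg5-1* and *atg5-1* seedlings, with 3 libraries of each genotype. The *lon1-2atg5-1* double mutant carries T-DNA insertions in LON1, a protease of the mitochondrial matrix, and in ATG5, which is needed to form autophagosomes. The *atg5-1* single mutant carries the ATG5 insertion alone, so both genotypes lack normal autophagy. Both are in the Col-0 background, and RNA came from whole seedlings kept in long days without any stress treatment. The series describes the seedlings as 7 days old, whereas the methods of the study give another age. Libraries of Col-0 and of the *lon1-2* single mutant were not used here.

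When sugar runs short, as in prolonged darkness, plant cells switch on a common set of genes through the energy-sensing kinase SnRK1, and sugar switches most of them off again. Part of this set lets mitochondria burn amino acids instead of sugar. Leucine, isoleucine and valine are first stripped of their amino group, then decarboxylated by the branched-chain keto acid dehydrogenase complex, and leucine is taken further by IVD and methylcrotonyl-CoA carboxylase. IVD and D2HGDH hand electrons to the electron transfer flavoprotein, and ETFQO passes them to ubiquinone in the respiratory chain. Loss of autophagy alone makes plants sensitive to carbon starvation.

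The libraries held 21964283 to 23929531 counts of reads assigned to genes. LON1 had 196, 126 and 95 counts in *lon1-2atg5-1*, against 671, 528 and 602 in *atg5-1*, which is the direction the labels imply. ATG5, disrupted in both genotypes, had 1319, 930 and 636 counts in *lon1-2atg5-1* and 516, 520 and 436 in *atg5-1*. The *lon1-2atg5-1* libraries varied more among themselves, with a common biological coefficient of variation of 0.135, against 0.0631 in *atg5-1*. Root markers summed to 862, 990 and 1138 counts in *lon1-2atg5-1* and 1727, 1403 and 1457 in *atg5-1*, and 3 of the 4 were called lower. The fourth, IRT1, an iron transporter, was called higher, with 550, 546 and 671 counts in *lon1-2atg5-1* and 290, 301 and 179 in *atg5-1*. Seed markers summed to 210, 254 and 126 counts in *lon1-2atg5-1* and 8, 8 and 4 in *atg5-1*, and 3 of 3 were called higher. Of the 3 shoot markers, 0 were called, beside 13.7% called lower and 14.0% called higher of all genes tested. The part of these tissue markers in the results was not tested, and in whole seedlings fewer cells of a type cannot be told apart from less RNA per cell.

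Of the 10 genes, 8 were called lower in *lon1-2atg5-1* and 0 were called higher. A gene was called where edgeR's quasi-likelihood test gave an adjusted p under 0.05 and the fold change was over 1.5. Across the 20157 genes tested, 13.7% were called lower and 14.0% were called higher. With the adjusted p alone, 9 of the 10 genes were lower and 0 higher, against 25.8% lower and 27.7% higher of all genes tested. In 9 of the 10, every *lon1-2atg5-1* library lay below every *atg5-1* library, which held for 30.9% of all genes tested. All 10 log2 fold changes were negative, and their median was -1.40, against -0.0003 over all genes tested. All 10 passed the filter on low counts. D2HGDH was not called, missed the adjusted p threshold and overlapped between genotypes, although its log2 fold change was negative too. DIN9 missed only the fold threshold.

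**Figure D1:**
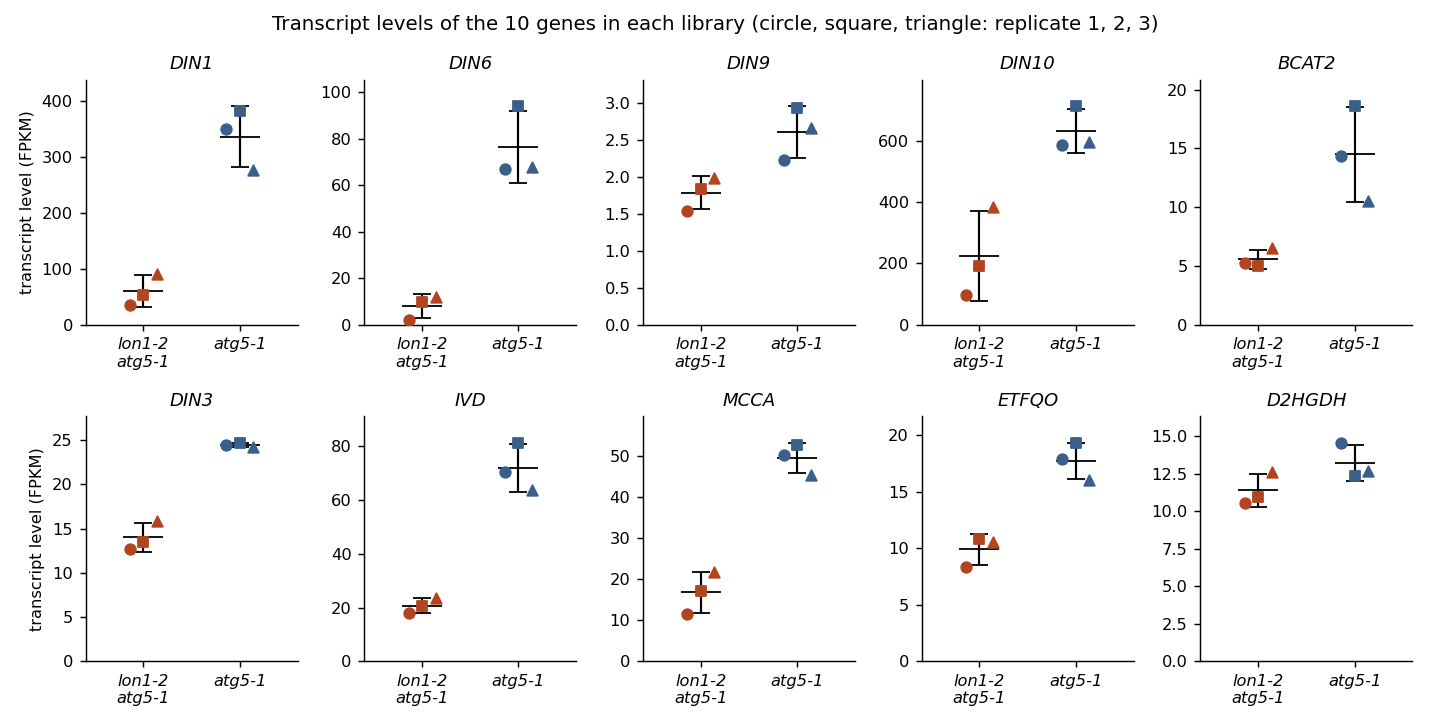
Transcript level in FPKM (the count scaled by transcript length and library total) of each of the 10 genes in the 3 *lon1-2atg5-1* libraries (left) and the 3 *atg5-1* libraries (right) of each panel, with symbols for the replicate number. The genotypes are apart in 9 panels and overlap in that of D2HGDH.

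DIN6, also called ASN1, encodes a glutamine-dependent asparagine synthetase that stores nitrogen as asparagine when carbon is short. It showed the largest difference of the 10 genes. DIN6 (AT3G47340, chr3:17437840-17441431, minus strand, TAIR10.1) had 131, 596 and 796 counts in *lon1-2atg5-1*, against 4232, 5734 and 4127 in *atg5-1*. The highest *lon1-2atg5-1* library was thus far below the lowest *atg5-1* library. Its level averaged 8.04 ± 5.24 FPKM in *lon1-2atg5-1* and 76.3 ± 15.4 FPKM in *atg5-1* (SD, n = 3 each). It was 9.22-fold lower, a log2 fold change of -3.20 ± 0.52 (SE) with an adjusted p of 0.00125 in edgeR's quasi-likelihood test. The 95% interval of this log2 fold change ran between -4.39 and -2.01. Replicate 1 stood below the other *lon1-2atg5-1* libraries, and leaving it out gave a log2 fold change of -2.74.

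The 500 bases before the DIN6 start are shown in part because they hold a G-box, the core site bound by many bZIP factors of the low-energy response. The G-box was searched as CACGTG, which reads the same on both strands. It stands in capitals below and begins 167 bases before the annotated start, on the minus strand at chr3:17441566-17441625 of the RefSeq TAIR10.1 assembly.
DIN6: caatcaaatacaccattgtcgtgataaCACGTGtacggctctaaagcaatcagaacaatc
Of all 27443 windows of this length, 9.35% held a G-box, as did 9.07% of those of genes called lower, and DIN6 was the 1 of the 10 genes with it. The end of the stretch overlaps an exon of AT3G47341 on the other strand, which had 0 counts in every library.

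DIN1, also called SEN1, is a senescence- and darkness-induced gene for a chloroplast protein with a rhodanese-like domain. DIN1 (AT4G35770, chr4:16944878-16946266, plus strand) had 1029, 1524 and 2815 counts in *lon1-2atg5-1*, against 10449, 11012 and 7932 in *atg5-1*. No library of one genotype came near those of the other. Its level averaged 59.8 ± 28.2 FPKM in *lon1-2atg5-1* and 336 ± 54.6 FPKM in *atg5-1* (SD, n = 3 each). It was 5.46-fold lower, a log2 fold change of -2.45 ± 0.33 (SE) with an adjusted p of 0.000472 in edgeR's quasi-likelihood test. The log2 fold change stayed between -2.91 and -2.17 when any 1 library was left out.

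DIN10, or RS6, resembles raffinose synthases and was the most abundant transcript of the set. DIN10 (AT5G20250, chr5:6833564-6836862, plus strand) had 6861, 13052 and 28683 counts in *lon1-2atg5-1*, against 41935, 49377 and 41127 in *atg5-1*. It took 0.0699% of all counts in *lon1-2atg5-1* and 0.197% in *atg5-1*. The 3 *lon1-2atg5-1* libraries were spread over a 4.15-fold range after normalization, against 1.25-fold in *atg5-1*. The log2 fold change was -1.45 ± 0.43 (SE), or 2.73-fold lower, with an adjusted p of 0.0210 in edgeR's quasi-likelihood test. This call depended on single libraries. The adjusted p of edgeR's quasi-likelihood test was 0.0717 without *lon1-2atg5-1* replicate 2, 0.0653 without *atg5-1* replicate 2 and 0.0509 without *atg5-1* replicate 3. Without *lon1-2atg5-1* replicate 3, the highest of its group, the log2 fold change was -2.11.

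The DIN10 window is shown for its evening element, a site through which the circadian clock acts on evening genes. It was searched as AAATATCT on both strands. It stands in capitals in the stretch at chr5:6833164-6833223 (plus strand, TAIR10.1), beginning 373 bases before the start.
DIN10: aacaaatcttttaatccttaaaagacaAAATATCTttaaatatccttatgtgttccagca
Such an element was present in 8.86% of all windows. Of the other motifs searched on both strands, ACTCAT, known from proline-responsive genes, was in the window of DIN9 and in 24.3% of all windows. TATCCA, known from sugar-starvation-induced genes of rice, was in those of DIN6, IVD and D2HGDH and in 25.5% of all windows. These matches are descriptions of the letters and not of binding.

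DIN9, or PMI2, encodes a phosphomannose isomerase and was the least abundant gene of the set. DIN9 (AT1G67070, chr1:25041833-25044659, plus strand) had 73, 85 and 100 counts in *lon1-2atg5-1*, against 108, 137 and 124 in *atg5-1*. The genotypes did not overlap but lay close together. The log2 fold change was -0.51 ± 0.17 (SE) with an adjusted p of 0.0347 in edgeR's quasi-likelihood test, and the 1.43-fold difference stayed under the threshold of 1.5. It passed both thresholds without *atg5-1* replicate 1 (log2 fold change -0.62) or without *lon1-2atg5-1* replicate 3 (-0.61). The adjusted p in edgeR's quasi-likelihood test reached 0.120 at most when 1 library was left out.

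BCAT2 is a branched-chain aminotransferase that takes the amino group off leucine, isoleucine and valine. BCAT2 (AT1G10070, chr1:3288087-3290471, plus strand) had 206, 191 and 273 counts in *lon1-2atg5-1*, against 578, 724 and 407 in *atg5-1*. It averaged 5.57 ± 0.827 FPKM in *lon1-2atg5-1* and 14.5 ± 4.07 FPKM in *atg5-1* (SD, n = 3 each). It was 2.54-fold lower, a log2 fold change of -1.35 ± 0.21 (SE) with an adjusted p of 0.00113 in edgeR's quasi-likelihood test. BCAT2 was the 1 gene of the 10 that varied more among *atg5-1* libraries, with a coefficient of variation of 17.4% in *lon1-2atg5-1* and 28.7% in *atg5-1*.

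DIN3 encodes the E2 acyltransferase core of the keto acid dehydrogenase, the committed step. DIN3 (AT3G06850, chr3:2157908-2160669, minus strand) had 558, 581 and 744 counts in *lon1-2atg5-1*, against 1102, 1074 and 1049 in *atg5-1*. It averaged 14.0 ± 1.66 FPKM in *lon1-2atg5-1*, against 24.4 ± 0.263 FPKM in *atg5-1*, whose libraries were nearly level (SD, n = 3 each). The difference was moderate, 1.71-fold lower, with a log2 fold change of -0.77 ± 0.10 (SE) and an adjusted p of 0.000411 in edgeR's quasi-likelihood test. An exon of AT3G06840 overlaps DIN3 on the other strand. AT3G06840 also had fewer counts, 88, 100 and 120 in *lon1-2atg5-1* against 171, 158 and 161 in *atg5-1*.

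IVD, isovaleryl-CoA dehydrogenase, oxidises the leucine-derived acyl-CoA and passes electrons to the flavoprotein. It had the smallest adjusted p of the 10 genes. IVD (AT3G45300, chr3:16621452-16625043, minus strand) had 659, 741 and 926 counts in *lon1-2atg5-1*, against 2648, 2949 and 2305 in *atg5-1*. It averaged 20.8 ± 2.87 FPKM in *lon1-2atg5-1* and 71.9 ± 8.89 FPKM in *atg5-1* (SD, n = 3 each). It was 3.38-fold lower, a log2 fold change of -1.76 ± 0.14 (SE) with an adjusted p of 4.11e-05 in edgeR's quasi-likelihood test. Leaving out any 1 library kept the log2 fold change between -1.88 and -1.64.

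MCCA encodes the biotin-carrying subunit of methylcrotonyl-CoA carboxylase, which follows IVD in leucine breakdown. MCCA (AT1G03090, chr1:739544-744184, plus strand) had 715, 1031 and 1424 counts in *lon1-2atg5-1*, against 3171, 3216 and 2764 in *atg5-1*. The *lon1-2atg5-1* libraries spanned a 1.98-fold range, yet the highest lay well below the lowest of *atg5-1*. The log2 fold change was -1.52 ± 0.21 (SE), or 2.87-fold lower, with an adjusted p of 0.000558 in edgeR's quasi-likelihood test. AT1G03100, which overlaps MCCA on the other strand, went the other way, with 105, 86 and 99 counts in *lon1-2atg5-1* against 65, 71 and 51 in *atg5-1*.

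The electron-transfer members behaved unequally. ETFQO, which moves electrons from the flavoprotein to ubiquinone, had 441, 560 and 593 counts in *lon1-2atg5-1*, against 964, 1005 and 836 in *atg5-1* (AT2G43400, chr2:18021109-18025292, plus strand). It was 1.75-fold lower, a log2 fold change of -0.81 ± 0.12 (SE) with an adjusted p of 0.00091 in edgeR's quasi-likelihood test. D2HGDH oxidises D-2-hydroxyglutarate, a product of lysine breakdown. D2HGDH (AT4G36400, chr4:17197188-17200932, plus strand) had 526, 534 and 670 counts in *lon1-2atg5-1*, against 742, 609 and 624 in *atg5-1*, so the genotypes overlapped. Its log2 fold change was -0.18 ± 0.10 (SE), with a 95% interval between -0.42 and 0.05 and an adjusted p of 0.161 in edgeR's quasi-likelihood test. Without *lon1-2atg5-1* replicate 3 it was -0.28, with an adjusted p of 0.0193 in the same edgeR test, still under 1.5-fold.

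Exons of 7 of the 10 genes overlap a gene on the other strand, and whether counting used strand is not stated in the sources used here. For DIN6 and DIN10 the overlapping genes had at most 5 counts in any library. The gene opposite D2HGDH, AT4G36390, had 2180, 2402 and 2567 counts in *lon1-2atg5-1* and 2183, 2112 and 1962 in *atg5-1*, more than D2HGDH itself. FPA, opposite ETFQO, had 1039, 1036 and 1084 counts in *lon1-2atg5-1* and 1035, 916 and 821 in *atg5-1*. AT1G10090, opposite BCAT2, had 632, 659 and 799 counts in *lon1-2atg5-1* and 768, 757 and 713 in *atg5-1*. Their part in the members' values was not tested. None of the 10 matched another gene at 90% identity or more over 100 bases or more. The closest was ASN2 (AT5G65010), at 84.3% to DIN6 over 159 bases.

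The order of levels within a genotype also differed, compared here in FPKM. DIN10 and DIN1 led in both genotypes, at 224 ± 146 and 59.8 ± 28.2 FPKM in *lon1-2atg5-1* and 631 ± 71.1 and 336 ± 54.6 FPKM in *atg5-1* (SD, n = 3 each). DIN6 ranked 8 of 10 in *lon1-2atg5-1* and 3 of 10 in *atg5-1*. D2HGDH ranked 6 of 10 in *lon1-2atg5-1* and 9 of 10 in *atg5-1*, although its own level differed little. Neighbours whose ranges overlapped in *lon1-2atg5-1* were IVD and MCCA, MCCA and DIN3, D2HGDH and ETFQO, ETFQO and DIN6, and DIN6 and BCAT2. In *atg5-1* they were DIN6 and IVD, ETFQO and BCAT2, and BCAT2 and D2HGDH. DIN9 was last in both, at 1.79 ± 0.225 FPKM in *lon1-2atg5-1* and 2.61 ± 0.352 FPKM in *atg5-1* (SD, n = 3 each).

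The 10 genes shared a pattern among the *lon1-2atg5-1* libraries. Replicate 3 was the highest for 10 of 10 genes, and replicate 1 the lowest for 9 of 10. Of all genes called lower, replicate 3 was highest for 52.6% and replicate 1 lowest for 55.1%. Coefficients of variation ran between 12.4% and 67.6% in *lon1-2atg5-1* and between 1.91% and 28.7% in *atg5-1*, and were larger in *lon1-2atg5-1* for 9 of 10 genes, as for 64.4% of all genes tested. The medians over all genes tested were 9.79% in *lon1-2atg5-1* and 6.89% in *atg5-1*. DIN6 spanned a 6.03-fold range in *lon1-2atg5-1* and a 1.44-fold range in *atg5-1*. DIN1 spanned a 2.72-fold range in *lon1-2atg5-1* and a 1.40-fold range in *atg5-1*.

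**Figure D2:**
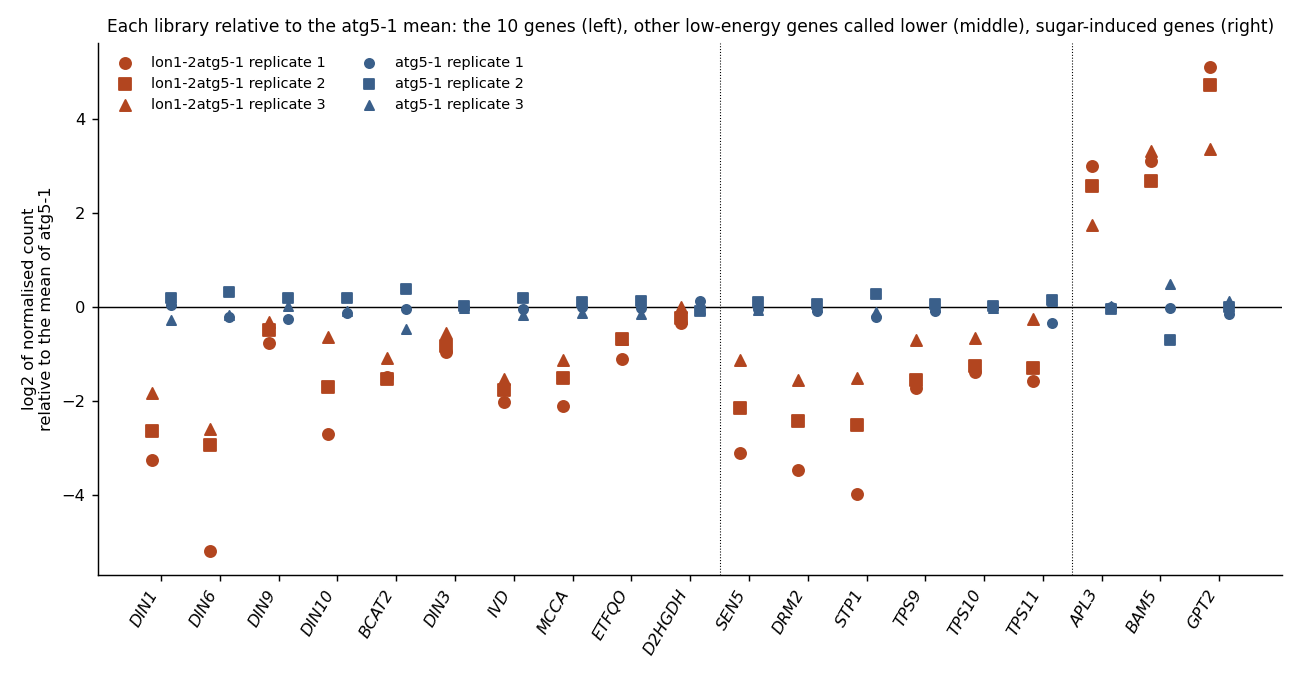
Normalised count of each library on a log2 scale relative to the *atg5-1* mean, for the 10 genes, the 6 other low-energy genes called lower and the 3 sugar-induced genes. *lon1-2atg5-1* replicate 3 is the nearest of its group to the *atg5-1* mean for all 10 genes, and DIN6 in replicate 1 is the lowest point.

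Several of the 10 work beside a partner subunit or isoform, and the FPKM ratio of the pair shows whether both moved alike. Of 8 ratios compared, 7 did not overlap between genotypes. With 3 libraries against 3, the smallest p of a two-sided exact permutation test is 0.10. These 7 ratios all had it (0.114 after Benjamini-Hochberg adjustment over the 8), so none could pass 0.05. The ratios are not independent, since ETFQO and DIN6 each enter more than once. The share of other gene pairs whose ratios do not overlap was not measured. Of all single genes tested, 30.9% had every *lon1-2atg5-1* library below every *atg5-1* library. That share leaves out genes apart in the higher direction, so the share apart in either direction is larger. Of 16 further genes of branched-chain breakdown, 8 were apart lower and 8 apart higher. MCCA over MCCB, the other subunit of the carboxylase, was 0.543, 0.694 and 0.809 in *lon1-2atg5-1* and 1.52, 1.56 and 1.41 in *atg5-1*. The ratio thus changed sides, with MCCA the lower of the pair in *lon1-2atg5-1* and the higher in *atg5-1*. ETFQO over ETFA, a subunit of the flavoprotein it oxidises, was 0.597, 0.847 and 0.87 in *lon1-2atg5-1* and 1.58, 2.04 and 1.46 in *atg5-1*. BCAT2 over BCAT1, the other mitochondrial isoform, was 1.13, 0.887 and 1.34 in *lon1-2atg5-1* and 2.25, 2.55 and 1.5 in *atg5-1*. DIN6 over ASN2, a second asparagine synthetase, was 0.0141, 0.0592 and 0.0588 in *lon1-2atg5-1* and 0.282, 0.426 and 0.306 in *atg5-1*. DIN3 over DIN4, the E1 beta subunit of the same complex, was the exception, at 0.618, 0.511 and 0.552 in *lon1-2atg5-1* and 0.501, 0.475 and 0.553 in *atg5-1*. The ranges of that ratio overlapped, with a permutation p of 0.3.

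Among 16 further genes of branched-chain breakdown, 5 were called lower and 3 higher in *lon1-2atg5-1*, beside 13.7% and 14.0% of all genes tested. With the adjusted p alone, 8 were lower and 7 higher, beside 25.8% and 27.7% of all genes tested. The 16 genes had a median log2 fold change of -0.16. The keto acid dehydrogenase divided by subunit. All 5 genes of its E1 and E2 subunits were called lower, DIN3 included, whereas mtLPD1 and mtLPD2, the E3 subunit it shares with other mitochondrial dehydrogenases, were called higher. The E1 alpha gene AT1G21400 (BCKDH-E1A1) had 890, 948 and 1355 counts in *lon1-2atg5-1*, against 3496, 3984 and 3043 in *atg5-1*, with a log2 fold change of -1.72 ± 0.16 (SE). DIN4 had 627, 789 and 935 counts in *lon1-2atg5-1*, against 1526, 1570 and 1317 in *atg5-1*, a log2 fold change of -0.90. The log2 fold changes of mtLPD1 and mtLPD2 were 0.71 and 0.62, and mtLPD2 was under 1.5-fold, at 0.55, without *lon1-2atg5-1* replicate 1.

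The partners of the other members differed less. MCCB had a log2 fold change of -0.41, BCAT1 of -0.43 and ETFA of 0.32, each past the adjusted p threshold but under 1.5-fold. ETFB, the second flavoprotein subunit, had a log2 fold change of 0.09 and an adjusted p of 0.302 in the same edgeR test. The gene furthest up was AT4G31810 (CHY4), related to an enzyme of valine breakdown, with 671, 637 and 574 counts in *lon1-2atg5-1*, against 258, 189 and 203 in *atg5-1*. Without *lon1-2atg5-1* replicate 1, 3 of these 16 genes were called lower, since ALDH6B2 and BCKDH-E1B1 then fell under 1.5-fold, at log2 fold changes of -0.50 and -0.57.

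**Figure D3:**
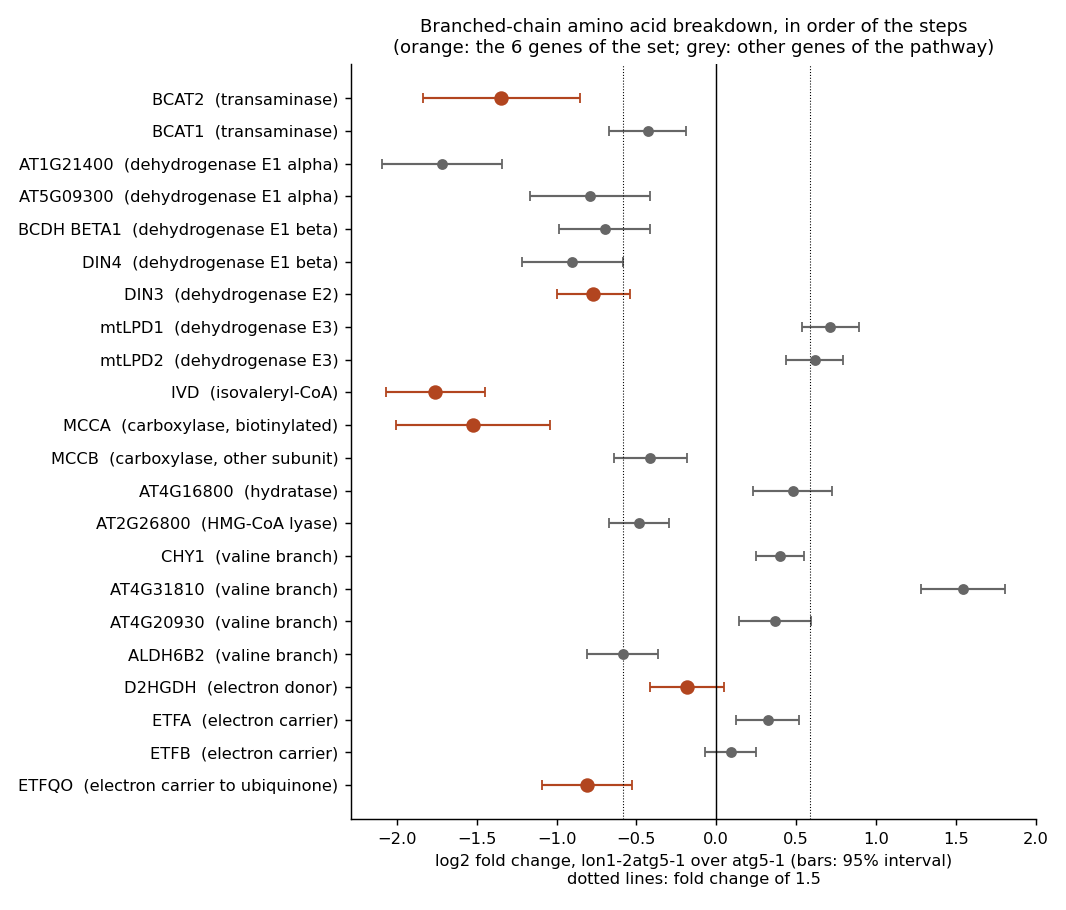
Log2 fold change, *lon1-2atg5-1* over *atg5-1*, of the genes of branched-chain breakdown in the order of the steps, with 95% intervals and dotted lines at 1.5-fold. Members of the set are orange and the other genes grey; IVD, at -1.76, and BCKDH-E1A1, at -1.72, lie furthest left, and CHY4 furthest right.

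Other genes that low energy induces were divided. Of 14, 6 were called lower and 3 higher in *lon1-2atg5-1*, beside 13.7% lower and 14.0% higher of all genes tested. The log2 fold changes of the list had a median of -0.53. STP1, a sugar transporter, had 1367, 3601 and 7667 counts in *lon1-2atg5-1*, against 19237, 25414 and 19622 in *atg5-1*, a log2 fold change of -2.35. DRM2, a dormancy-associated gene, had 1178, 2306 and 4465 counts in *lon1-2atg5-1*, against 12674, 13263 and 12717 in *atg5-1*, a log2 fold change of -2.28. SEN5, a senescence-associated gene, had 3426, 6282 and 13537 counts in *lon1-2atg5-1*, against 29239, 30862 and 27278 in *atg5-1*, a log2 fold change of -1.91. In all 6 genes called lower, *lon1-2atg5-1* replicate 1 was the lowest and replicate 3 the highest of that genotype, as in most of the 10. TPS11, the least changed of the 6, lost its call without any 1 of 4 libraries and overlapped between genotypes. Without *lon1-2atg5-1* replicate 3 the log2 fold changes of STP1 and SEN5 were -3.07 and -2.55.

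Dark-inducible genes were thus not all lower. DIN11, a dioxygenase-like gene, had 383, 435 and 655 counts in *lon1-2atg5-1*, against 183, 142 and 148 in *atg5-1*, a log2 fold change of 1.65. DIN2, a beta-glucosidase, and EXPA10, an expansin, had log2 fold changes of 0.82 and 0.76. The DIN2 libraries overlapped between genotypes, with 160, 134 and 90 counts in *lon1-2atg5-1* and 68, 90 and 60 in *atg5-1*. DIN2 lost its call without any 1 of 4 libraries, with adjusted p-values in edgeR's quasi-likelihood test of 0.0601 without *lon1-2atg5-1* replicate 1, 0.0707 without *lon1-2atg5-1* replicate 2, 0.0806 without *atg5-1* replicate 1 and 0.0862 without *atg5-1* replicate 3. Without *lon1-2atg5-1* replicate 1, DIN11 was the 1 gene of the list still called higher.

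The 3 genes listed as induced by sugar were all called higher in *lon1-2atg5-1*, beside 14.0% of all genes tested. This list, like the others, was chosen with earlier results of these data known, so the count is a description only. GPT2, a glucose-6-phosphate transporter of plastids, had 1640, 1197 and 489 counts in *lon1-2atg5-1*, against 44, 46 and 51 in *atg5-1*, a log2 fold change of 4.57. APL3, a subunit of the enzyme that commits glucose to starch, had 1817, 1287 and 758 counts in *lon1-2atg5-1*, against 234, 214 and 224 in *atg5-1*, a log2 fold change of 2.53. BAM5, a beta-amylase, had 102, 72 and 118 counts in *lon1-2atg5-1*, against 12, 7 and 16 in *atg5-1*, a log2 fold change of 3.05. For GPT2 and APL3, *lon1-2atg5-1* replicate 1 was the highest and replicate 3 the lowest, the reverse of the order in DIN1, DIN6 and DIN10. BAM5 did not share this order, as its replicate 3 was the highest and replicate 2 the lowest.

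Of 13 genes of the SnRK1 kinase and its bZIP factors, 5 were called lower and 0 higher, beside 13.7% and 14.0% of all genes tested. With the adjusted p alone, 8 were lower and 2 higher, beside 25.8% and 27.7% of all genes tested. AKINB1, a regulatory subunit, had 635, 935 and 1607 counts in *lon1-2atg5-1*, against 2830, 3014 and 2493 in *atg5-1*, a log2 fold change of -1.39. The factors bZIP63 and bZIP1 had log2 fold changes of -1.05 and -0.83. The factor bZIP11 went the other way, at 0.55, past the adjusted p threshold but under 1.5-fold. It was called higher without *atg5-1* replicate 1, at 0.65, or without *lon1-2atg5-1* replicate 3, at 0.66. KIN10, the main catalytic subunit, had a log2 fold change of -0.11 and an adjusted p of 0.240 in edgeR's quasi-likelihood test. The other catalytic subunit, KIN11, had a log2 fold change of -0.47 with an adjusted p of 0.000335 in the same edgeR test, under 1.5-fold.

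Of 14 genes of branched-chain amino acid synthesis, 3 were called higher and 1 lower, beside 14.0% higher and 13.7% lower of all genes tested. With the adjusted p alone, 9 were higher and 1 lower, beside 27.7% and 25.8% of all genes tested. Their median log2 fold change was 0.36. DHAD, the dehydratase shared by the valine and isoleucine routes, had 2822, 2691 and 2603 counts in *lon1-2atg5-1*, against 1467, 1269 and 1280 in *atg5-1*, a log2 fold change of 1.02. OMR1, threonine deaminase, and IPMDH3, of leucine synthesis, had log2 fold changes of 0.72 and 0.62. The gene called lower was AT2G31810, a regulatory subunit of acetolactate synthase, at -0.78.

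Breakdown of other amino acids was mixed, with 4 genes called lower and 2 higher of 11 tested. Of all genes tested, 13.7% were called lower and 14.0% higher. PRODH1, the first enzyme of proline breakdown, had 2515, 4239 and 7425 counts in *lon1-2atg5-1*, against 14929, 16092 and 13001 in *atg5-1*, a log2 fold change of -1.63. PRODH2 had a log2 fold change of -1.20, and ARGAH2, an arginase, of 1.49. P5CDH, the next enzyme of proline breakdown, went the other way from PRODH1 and PRODH2 and was called higher, at 0.73. It had 1986, 1751 and 1845 counts in *lon1-2atg5-1*, against 1247, 1104 and 1031 in *atg5-1*. Around DIN6, ASN2 had a log2 fold change of -0.34 and ASN3 of 0.18, and neither passed edgeR's quasi-likelihood test, ASN2 narrowly and ASN3 with an adjusted p of 0.104. ASPGB1, an asparaginase, was called lower at -1.26. Around DIN9 and DIN10, GOLS1, which makes the galactinol used for raffinose, was called lower at a log2 fold change of -2.06, and PMM, phosphomannomutase, was called higher at 0.83. GOLS2 and GOLS3, of the same function as GOLS1, were not called, at 0.32 and -0.10. PMI1, the other phosphomannose isomerase, had 1982, 1879 and 1750 counts in *lon1-2atg5-1*, against 1511, 1394 and 1358 in *atg5-1*, opposite in direction to DIN9.

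**Figure D4:**
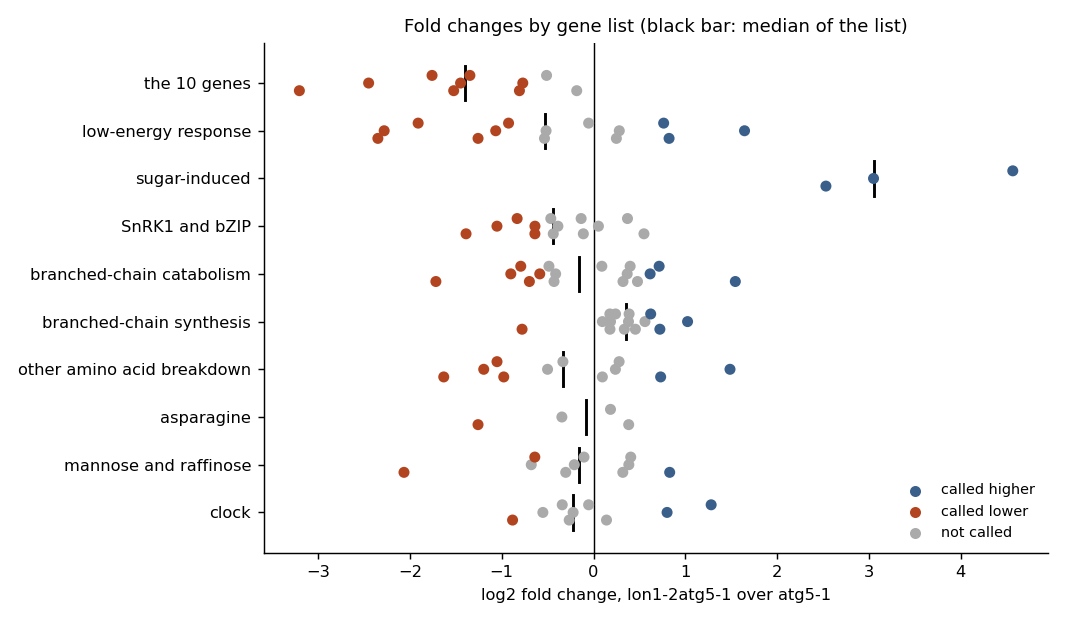
Log2 fold change, *lon1-2atg5-1* over *atg5-1*, of every tested gene by list, with a black bar at the median of the list. The 10 genes have a median of -1.40, while the further genes of branched-chain breakdown lie on both sides of 0 with a median of -0.16.

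Clock and senescence genes were listed because harvest time and age can move low-energy genes. Of 9 clock genes, 2 were called higher and 1 lower, beside 14.0% higher and 13.7% lower of all genes tested. With the adjusted p alone, 2 were higher and 5 lower, beside 27.7% and 25.8% of all genes tested. CCA1, a morning gene, had a log2 fold change of -0.88. PRR9 and GI had log2 fold changes of 1.28 and 0.80, but the libraries of each overlapped between genotypes. Both lost the call without any of several single libraries, among them *lon1-2atg5-1* replicate 2, at 0.77 and 0.68. Of 5 senescence genes tested, SAG13 and WRKY53 were called higher, at 3.56 and 3.07, and NYE1 lower, at -0.84. WRKY53 stood at 1.96 without *lon1-2atg5-1* replicate 1. The part of harvest time in the result was not tested.

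The genes whose pattern over the 6 libraries was most like the mean of the 10 were found by the root mean square difference of centred log2 CPM. They were AT1G51270, at 0.0727, P1R3, at 0.0804, AT2G20500, at 0.0976, AT3G48390, at 0.104, and PATL2, at 0.104. PATL2, a patellin, had 2572, 3421 and 5725 counts in *lon1-2atg5-1*, against 9439, 10277 and 9227 in *atg5-1*.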

How the data were processed

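RNA of 3 *lon1-2atg5-1* and 3 *atg5-1* seedling samples, described as biological triplicates, was sequenced by the authors from stranded mRNA libraries. Per the labels, reads were processed with Trimmomatic, HISAT2, HTSeq and Cufflinks on TAIR10. The counts as deposited by the authors are raw reads per gene. The FPKM values as deposited equalled count over exonic length and library total (largest relative error 6.12e-08).

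In R 4.3.3, edgeR 4.0.16 was used to filter genes (filterByExpr), scale libraries (TMM) and run its quasi-likelihood test, with Benjamini-Hochberg adjustment over 20157 genes. Standard errors were derived from the F statistic. Normalization factors lay between 0.962 and 1.03. The fit was tested on simulated data with the same spread in both genotypes, which does not cover the unequal spread of these libraries. Alternatives used DESeq2 1.42.0, edgeR's exact test, limma 3.58.1 on log2(FPKM + 1) and log2(FPKM + 0.1), other filters and thresholds, a replicate block and each library left out. Named were all 10 genes, their partners and, from each list, up to 3 called genes with the largest change; others named complete a count or were chosen after their values were seen. Genes and lists were chosen with earlier results of these data known. The count over the list of mannose and raffinose genes is not reported here.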

Additional observations from a re-analysis of the deposited data

How the results depend on the processing

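The count of 8 of the 10 genes called lower was the same with DESeq2, edgeR's exact test, library size alone, both other filters, limma on either FPKM scale and the replicate block. It was 6 at a fold change over 2, 9 with no fold threshold and 7 to 9 when 1 library was left out; 0 were called higher in each. Of the fits of single members under other settings, 135 kept direction and side of the threshold, 2 passed it newly (DIN9), 3 lost it (DIN10) and 0 reversed. Of the further branched-chain breakdown genes, 1 was higher and 1 lower at a fold change over 2, and 7 and 8 with no fold threshold; with 1 library left out, 2 to 3 were higher and 3 to 5 lower. Of the low-energy genes, 1 was called higher at a fold change over 2, and 1 to 3 with 1 library left out, while 5 to 8 were then called lower and 5 with DESeq2. Same-numbered libraries did not deviate together (correlations of -0.04, -0.12 and -0.01), and the replicate block called 5472 genes, against 5588 without it.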
